A study of Mus musculus with 6 samples.

Results

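*Dlx1*, *Dlx2*, *Dlx5*, *Dlx6*, *Sp8*, *Sp9*, *Dcx* and *Gsx2* are transcription factor and cytoskeletal genes known from the neuroblasts that arise in the ventral forebrain and the subventricular zone. They were taken by symbol from the deposited expression table, and all 8 were found among its 34745 genes. The table holds RNA sequencing values for whole cerebral cortex (total RNA) taken from mouse pups on postnatal day 8. All 6 samples had the floxed PEN-2 gene on both alleles (Pen-2 F/F). The 3 control libraries carried nothing further by their labels, and the 3 cKO libraries carried hGFAP-Cre as well. PEN-2, encoded by *Psenen*, is a subunit of γ-secretase, the protease that releases the intracellular domain of Notch receptors. The labels name Cre for the cKO group alone, so the transgene and the deletion cannot be told apart. The human GFAP promoter is known to be active in radial glia of the dorsal forebrain as well as in astrocytes, so deletion need not be limited to astrocytes. The labels number the samples without stating that they are different animals. The p-values therefore reflect only the spread among these 6 samples, part of which may be technical.

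In the embryonic ganglionic eminences and later in the subventricular zone, the homeobox gene *Gsx2* acts in progenitors and lies upstream of the *Dlx* genes. *Dlx1* and *Dlx2* are switched on as progenitors commit to the GABAergic lineage, and *Dlx5* and *Dlx6* follow as the cells leave the cycle. Sp8 and Sp9 are zinc finger factors of migrating neuroblasts and olfactory bulb interneurons, and DCX is a microtubule-binding protein of migrating young neurons. The set is not specific to the subventricular zone: *Dlx* genes remain active in cortical interneurons, *Sp8* in those from the caudal ganglionic eminence, and *Dcx* in young excitatory neurons. Values of bulk tissue do not name the cells of origin, and fewer cells of a type cannot be told apart from less RNA per cell.

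The *Dlx* genes of the set are arranged in linked pairs, and the others lie apart. *Dlx1* (ENSMUSG00000041911, mm10 chromosome 2, 71528113 to 71533981, plus strand) and *Dlx2* (ENSMUSG00000023391, chromosome 2, 71543408 to 71546754, minus strand) face each other with 9426 bases between them. *Sp9* (ENSMUSG00000068859, 73271925 to 73284706) lies on the same chromosome, 1725170 bases beyond *Dlx2*. *Dlx6* (ENSMUSG00000029754, chromosome 6, 6863334 to 6868568, plus strand) and *Dlx5* (ENSMUSG00000029755, 6877805 to 6882085, minus strand) are 9236 bases apart. *Sp8* (ENSMUSG00000048562) lies on chromosome 12 at 118846329 to 118852578, *Gsx2* (ENSMUSG00000035946) on chromosome 5 at 75075601 to 75077893, and *Dcx* (ENSMUSG00000031285) on chromosome X at 143855842 to 143933311. Genes on the opposite strand overlap 3 of them: *Dlx1as* overlaps *Dlx1*, *Dlx6os1* and *Dlx6os2* overlap *Dlx6*, and the protein-coding gene *Cir1* overlaps *Sp9*. Whether the counting used strand is not given in the sources used here, so fragments of such pairs cannot be told apart with certainty.

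RefSeq promoter windows, from 250 bases before to 50 bases after a gene's start on GRCm38.p6 (the mm10 assembly), were matched for 6 of the 8 genes. The upstream parts for *Dlx2*, *Sp8* and *Gsx2*, which touch no GENCODE M21 exon, are shown 5′ to 3′ on the strand of the gene, because these are factors of successive steps of the lineage whose RNA differed in abundance. Capitals mark GGGCGG, the GC box to which Sp family proteins bind, or its reverse complement. *Sp8* has 3 windows, for 3 annotated starts. The one shown lies inside the range given for the gene above and is the only one of the 3 with GGGCGG: the window at the start of that range (chr12:118846079-118846328), which also touches no exon, does not hold it.
Dlx2 (chr2:71546755-71547004, minus strand): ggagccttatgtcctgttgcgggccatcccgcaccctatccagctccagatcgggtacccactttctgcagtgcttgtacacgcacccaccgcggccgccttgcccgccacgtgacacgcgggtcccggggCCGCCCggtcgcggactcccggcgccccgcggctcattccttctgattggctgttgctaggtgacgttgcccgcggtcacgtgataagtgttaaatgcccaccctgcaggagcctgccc
Sp8 (chr12:118846983-118847232, plus strand): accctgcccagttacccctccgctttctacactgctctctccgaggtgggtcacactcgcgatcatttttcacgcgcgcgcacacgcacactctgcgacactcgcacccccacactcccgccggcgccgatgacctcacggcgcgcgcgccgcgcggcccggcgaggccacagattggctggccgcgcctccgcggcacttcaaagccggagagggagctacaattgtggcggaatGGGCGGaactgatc
Gsx2 (chr5:75075351-75075600, plus strand): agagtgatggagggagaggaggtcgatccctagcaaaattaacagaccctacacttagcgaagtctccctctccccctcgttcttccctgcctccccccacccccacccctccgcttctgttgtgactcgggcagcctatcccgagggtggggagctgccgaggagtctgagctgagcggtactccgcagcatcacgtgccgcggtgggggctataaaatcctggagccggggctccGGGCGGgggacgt
GGGCGG was found on either strand in at least 1 window of 5 of the 6 genes (*Dlx1*, *Dlx2*, *Gsx2*, *Sp8* and *Sp9*), against 38.2% of 27025 genes with a window. That share is not matched for base composition. The upstream parts of the windows with GGGCGG were 62.4 to 68.0% G or C, against a median of 52.4% over all windows. The homeodomain core TAATTA, which is its own reverse complement, was found for *Dcx* and *Sp8*, against 6.1% of genes. The *Sp8* match lay in a window not shown (chr12:118847309-118847558), which touches an *Sp8* exon. The *Dcx* windows also touch an exon of their gene. GTGGGAA, the core motif of the Notch partner RBPJ, was found for none of the 6, against 7.2% of genes. Neither of the latter motifs overlaps GGGCGG, and these matches describe letters in short windows, not binding.

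The libraries held the fragments needed to measure all of these genes but *Gsx2* with some precision. The steps between the lowest values of single-transcript genes implied 20251900 to 26809300 fragments per library. All 6 libraries expressed the 12 cortex identity genes listed, among them *Slc17a7*, the vesicular glutamate transporter of cortical excitatory neurons, at 175.7 to 250.2 FPKM. The deleted gene *Psenen* was 6.35, 6.86 and 7.32 FPKM in control against 3.56, 3.90 and 4.03 FPKM in cKO libraries, a log2 difference of -0.82 (limma adjusted p = 0.00441), so its RNA followed the labels. FPKM are fragments per kilobase of transcript, scaled to the depth of the library, which allows levels of different genes to be set side by side.

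None of the 8 genes passed the test. With limma on log2(FPKM + 0.1), 7 of them reached the filter of 0.5 FPKM in 3 libraries, and 0 of these 7 had an adjusted p under 0.05, where 5.53% of all 14147 tested genes did. At an unadjusted p under 0.05 there were 0 higher and 2 lower, *Dcx* and *Sp8*. Over all 14147 tested genes, 2338 were higher and 896 lower at that threshold. For the 7 genes the log2 differences between cKO and control ran from -0.52 for *Sp8* to 0.23 for *Sp9*. Their median was -0.03, beside a median of 0.07 over all tested genes. The control and cKO libraries overlapped for all 7, whereas they did not overlap for 29.7% of all tested genes (21.5% higher and 8.17% lower in cKO). A p that misses the threshold does not show equal levels, so the interval of each fold is given with its values.

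**Figure D1:**
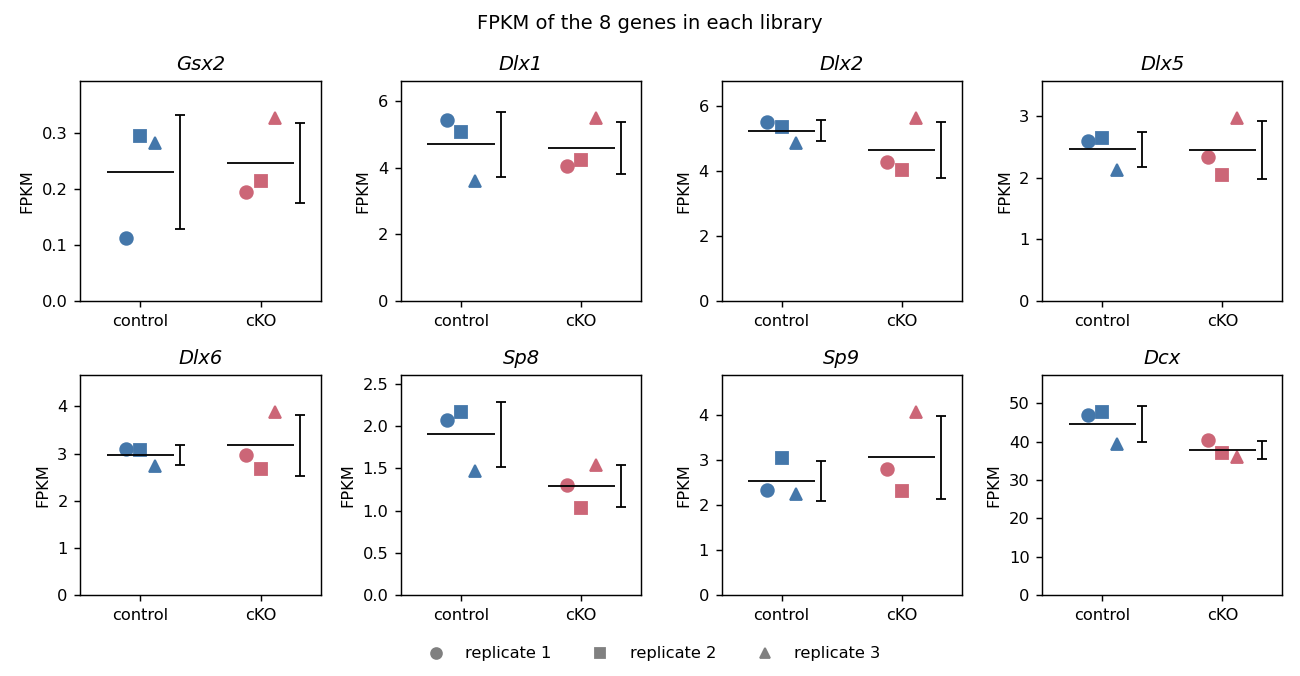
Expression in FPKM (y axis, from 0, a separate scale for each gene) of the 8 genes in the 3 control and 3 cKO libraries, with symbols for replicate number, a line at the group mean and a bar of 1 SD. In each of the 8 panels the groups overlap, and cKO replicate 3 is the highest cKO library for every gene but *Dcx*.

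The order of the levels was nearly the same in all libraries. *Dcx* was far the most abundant, at 41.2 ± 5.03 FPKM over the 6 libraries (SD, n = 6). *Dlx2* (4.94 ± 0.673 FPKM) and *Dlx1* (4.65 ± 0.794 FPKM) followed, and these did not differ beyond their spread, since *Dlx1* was above *Dlx2* in cKO replicate 2. *Dlx6* (3.07 ± 0.440 FPKM), *Sp9* (2.80 ± 0.702 FPKM) and *Dlx5* (2.45 ± 0.350 FPKM) came next. *Sp9* changed places with *Dlx6* in cKO replicate 3 and with *Dlx5* in control replicate 1, while *Dlx6* was above *Dlx5* in all 6 libraries. *Sp8* was seventh in every library (1.60 ± 0.444 FPKM) and *Gsx2* eighth (0.238 ± 0.0790 FPKM). *Dlx1* and *Dlx2* thus lay near the middle of the tested genes, at the 49.4 and 51.0 percentile of mean level, and *Dcx* at the 92.8 percentile.

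*Gsx2*, the progenitor factor at the head of the series, was 0.114, 0.295 and 0.282 FPKM in control replicates 1, 2 and 3 and 0.196, 0.215 and 0.327 FPKM in cKO replicates 1, 2 and 3. The lowest value was in control replicate 1 and the highest in cKO replicate 3, and the groups overlapped. Given its transcript lengths of 1182 to 1665 bases, these values stand for about 2.9 to 14.6 fragments per library. A difference in *Gsx2* was therefore not detectable at this depth unless it was large. It did not reach the filter, and when every detected gene was tested its log2 difference was 0.10, with a 95% interval from -0.64 to 0.85 (limma adjusted p = 0.901).

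*Dlx1* was 5.43, 5.08 and 3.60 FPKM in control against 4.04, 4.24 and 5.49 FPKM in cKO libraries. Control replicate 3 was the lowest of all libraries and cKO replicate 3 the highest. The means, 4.70 ± 0.972 and 4.59 ± 0.789 FPKM (SD, n = 3 per group), differed by less than either spread (log2 -0.03, limma adjusted p = 0.953). The 95% interval of the fold runs from 0.731 to 1.32. *Dlx2*, its neighbour and partner in commitment to the GABAergic fate, was 5.49, 5.35 and 4.86 FPKM in control against 4.26, 4.02 and 5.63 FPKM in cKO libraries. Replicates 1 and 2 of cKO lay below every control library, but replicate 3 lay above them all. The log2 difference was -0.19 (SE 0.14, limma adjusted p = 0.478, fold interval 0.704 to 1.10), and without cKO replicate 3 it was -0.33 (adjusted p = 0.143).

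*Dlx5*, which acts as the cells mature, was 2.60, 2.64 and 2.13 FPKM in control against 2.34, 2.04 and 2.97 FPKM in cKO libraries. The group means of 2.46 ± 0.284 and 2.45 ± 0.474 FPKM were the closest of the 7 tested genes, at a log2 difference of -0.01 (limma adjusted p = 0.971, fold interval 0.759 to 1.29). *Dlx6*, expressed with *Dlx5* from the shared locus, was 3.10, 3.09 and 2.73 FPKM in control against 2.96, 2.67 and 3.89 FPKM in cKO libraries. Again control replicate 3 was the lowest control and cKO replicate 3 the highest of all. Its log2 difference was 0.08 (limma adjusted p = 0.815, fold interval 0.823 to 1.35), and it was -0.08 without cKO replicate 3. The ratio of *Dlx6* to *Dlx5* stayed within 1.17 to 1.31 over the 6 libraries.

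The Sp factors lay at the opposite ends of the set. *Sp8* was 2.07, 2.17 and 1.46 FPKM in control against 1.30, 1.03 and 1.54 FPKM in cKO libraries. The groups overlapped only in that cKO replicate 3 exceeded control replicate 3. The mean was 1.90 ± 0.384 in control and 1.29 ± 0.253 FPKM in cKO cortex, a log2 difference of -0.52 (SE 0.20) that did not pass (limma adjusted p = 0.184), and the fold interval of 0.499 to 0.969 is not adjusted for the number of genes. *Sp9* was 2.33, 3.05 and 2.24 FPKM in control against 2.79, 2.30 and 4.07 FPKM in cKO libraries, with a log2 difference of 0.23 (limma adjusted p = 0.589, fold interval 0.823 to 1.68). Without cKO replicate 3, in which it was highest, that difference was 0.01. The ratio of *Sp9* to *Sp8*, a quantity chosen after the values were seen, was 1.12, 1.40 and 1.53 in control and 2.15, 2.22 and 2.64 in cKO libraries. The ratio did not overlap between the groups although neither gene passed alone. This was not particular to the Sp pair. Of the other ratios formed, those of *Dlx5* to *Dlx2*, *Dlx2* to *Gad2* and *Dlx6os1* to *Dlx6* did not overlap either. Those of *Dlx1* to *Dlx2*, *Dlx6* to *Dlx5*, *Dlx1as* to *Dlx1* and *Sp8* to *Dlx2* did overlap. No test was made of any of these ratios.

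*Dcx* was 46.9, 47.8 and 39.3 FPKM in control against 40.5, 36.9 and 35.9 FPKM in cKO libraries. Only cKO replicate 1 and control replicate 3 crossed. The mean was 44.7 ± 4.66 in control and 37.8 ± 2.39 FPKM in cKO cortex, a log2 difference of -0.24 (SE 0.09, limma adjusted p = 0.165, fold interval 0.735 to 0.978). *Dcx* was not called in the fit reported or in 15 of the 16 alternatives. Without control replicate 3 it passed narrowly, at a log2 difference of -0.33 (adjusted p = 0.0455). It was the only one of the 7 genes to pass in any alternative. Its values stand for at least 1283.5 fragments in every library, the most of the 8 genes.

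Variation between libraries of the same group was shared by most of the set. In 7 of the 8 genes control replicate 3 was the lowest control library, and in 7 of 8 cKO replicate 3 was the highest cKO library. Both were so for 6 of 8 genes, namely the 4 *Dlx* genes, *Sp8* and *Sp9*, against 15.4% of all tested genes. The deviation of cKO replicate 3 from its group mean was 0.25 to 0.44 on the log2 scale in these 6 genes and -0.07 in *Dcx*. Over the 6 libraries *Dlx5* and *Dlx6* had a Pearson r of 0.939, *Dlx1* and *Dlx2* 0.72, and *Sp8* and *Sp9* 0.195. These are descriptions over 6 samples in which all genes share the depth and composition of a library.

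**Figure D2:**
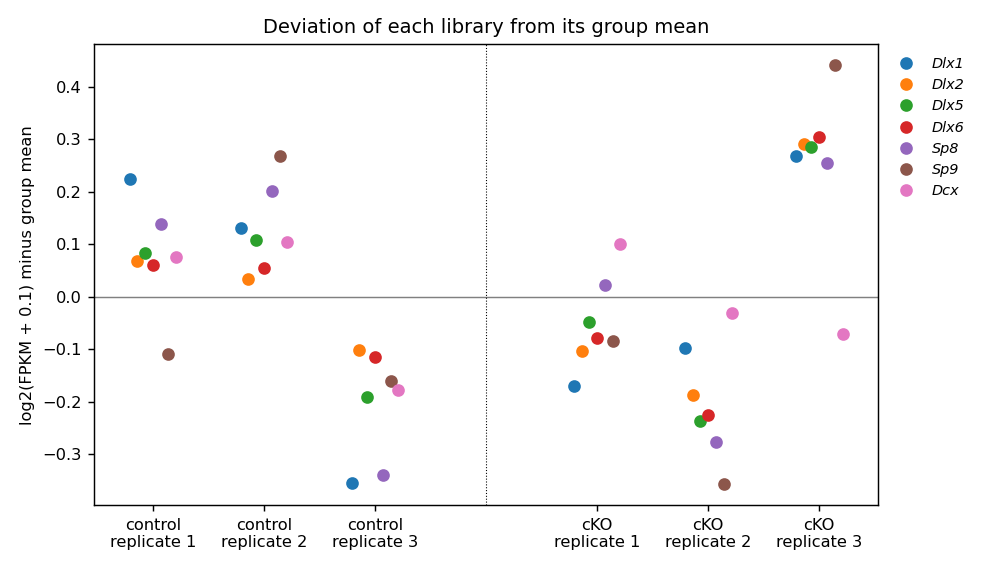
Deviation of log2(FPKM + 0.1) in each library from its group mean (y axis) for the 7 tested genes, with libraries along the x axis. In control replicate 3 all 7 points are below 0, and in cKO replicate 3 all but *Dcx* lie between 0.25 and 0.44.

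Many markers of other cells and tissues were also highest in cKO replicate 3. All 10 choroid plexus and ependyma genes were highest there among the cKO libraries, against 40.5% of all tested genes. Their summed level was 41.3 to 188 FPKM in control against 332, 190 and 898 FPKM in cKO replicates 1, 2 and 3, and none of the 10 was at 0 in all libraries. Nearly all of that sum was *Ttr*, at 33.1, 103.5 and 178.1 FPKM in control against 323.8, 181.8 and 876.5 FPKM in cKO libraries. Of the 7 genes of the list that were tested, 0 passed, where 5.53% of all tested genes did. A positive log2 difference was seen in 5 and a negative one in 2. In cKO replicate 3 *Foxj1*, a regulator of motile cilia in ependyma, was 5.50 FPKM against 2.08 and 2.48 FPKM in the other cKO libraries. *Lhx8* and *Nkx2-1*, regulators of the medial ganglionic eminence and its derivatives, were 2.06 and 1.93 FPKM there and at most 0.887 and 0.748 FPKM in the other cKO libraries. Medial eminence interneuron genes as a list did not share this: 4 of 12 were highest in cKO replicate 3, and *Sst* was lowest there. Of 13 eminence progenitor regulators, 10 were highest there. Of 13 striatal genes, 10 were highest in cKO replicate 3, and their sum was 255 FPKM there against 179 FPKM in each of the others. The pattern was not limited to adjoining tissue. Among the cKO libraries, 9 of 10 astrocyte genes and 12 of 15 Notch pathway genes were highest in replicate 3, but only 3 of 12 cortex identity genes. The choroid and ependyma list was not low in control replicate 3, where its sum was the highest of the controls. The part of these cells and tissues in the levels of the *Dlx* and *Sp* genes was not tested.

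By the rule of likeness, genes outside the set whose profile over the 6 libraries was close to the mean standardised profile of the 7 tested genes included *Alg2*, *Inpp4a*, *Zfp235*, *Gm43398* and *Dact1*, with Pearson r of 0.990, 0.990, 0.983, 0.981 and 0.978. The highest r among 14147 genes over 6 samples is high by selection and is given as a description.

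Genes of the *Dlx* loci and known *Dlx* targets were higher in part. Of 12, 10 were tested, 2 rose and 0 fell (3.67% of all tested genes rose and 1.87% fell), with a median log2 difference of 0.40. *Gad1*, a GABA-synthesizing enzyme, rose from 14.6 ± 0.745 to 22.1 ± 3.05 FPKM (log2 0.58, limma adjusted p = 0.0214). Its 3 cKO values of 19.7, 21.0 and 25.5 FPKM were all above the control values of 15.4, 13.9 and 14.6 FPKM. *Gad2* was 21.2, 22.1 and 20.1 FPKM in control against 24.3, 25.9 and 33.8 FPKM in cKO libraries (adjusted p = 0.110), and the vesicular GABA transporter *Slc32a1* was 45.0 ± 3.20 and 61.7 ± 10.96 FPKM (adjusted p = 0.0805). The *Gad1* call ended without control replicate 1 (adjusted p = 0.0627), control replicate 2 (0.0906) or cKO replicate 2 (0.0655). *Dlx3* and *Dlx4*, family members of skin, bone and placenta, were at most 0.104 FPKM in any library.

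*Dlx6os1*, the long noncoding antisense RNA of the *Dlx5* and *Dlx6* locus (ENSMUSG00000090063, chromosome 6, 6820189 to 6871592), rose while the protein-coding genes beside it did not pass. It was 2.65, 2.19 and 2.76 FPKM in control against 3.68, 3.61 and 3.95 FPKM in cKO libraries, which did not overlap. The log2 difference was 0.55 (SE 0.12, limma adjusted p = 0.0424, fold interval 1.21 to 1.78). The call was fragile: the adjusted p was 0.0702 with median-ratio scaling, 0.0625 with upper-quartile scaling, 0.0671 with the replicate number as a block, 0.0708 with no filter, and 0.0905, 0.119, 0.126, 0.120 and 0.102 without control replicates 1 and 2 and cKO replicates 1, 2 and 3. The difference between this change and that of *Dlx6* was not tested. *Dlx1as*, the antisense RNA over *Dlx1*, was 3.29, 3.28 and 3.70 FPKM in control against 4.83, 4.35 and 3.66 FPKM in cKO libraries (log2 0.31, adjusted p = 0.198), and was lowest of the cKO group in replicate 3, where *Dlx1* was highest. *Cir1*, which overlaps *Sp9*, did not pass (log2 -0.31, adjusted p = 0.0703).

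**Figure D3:**
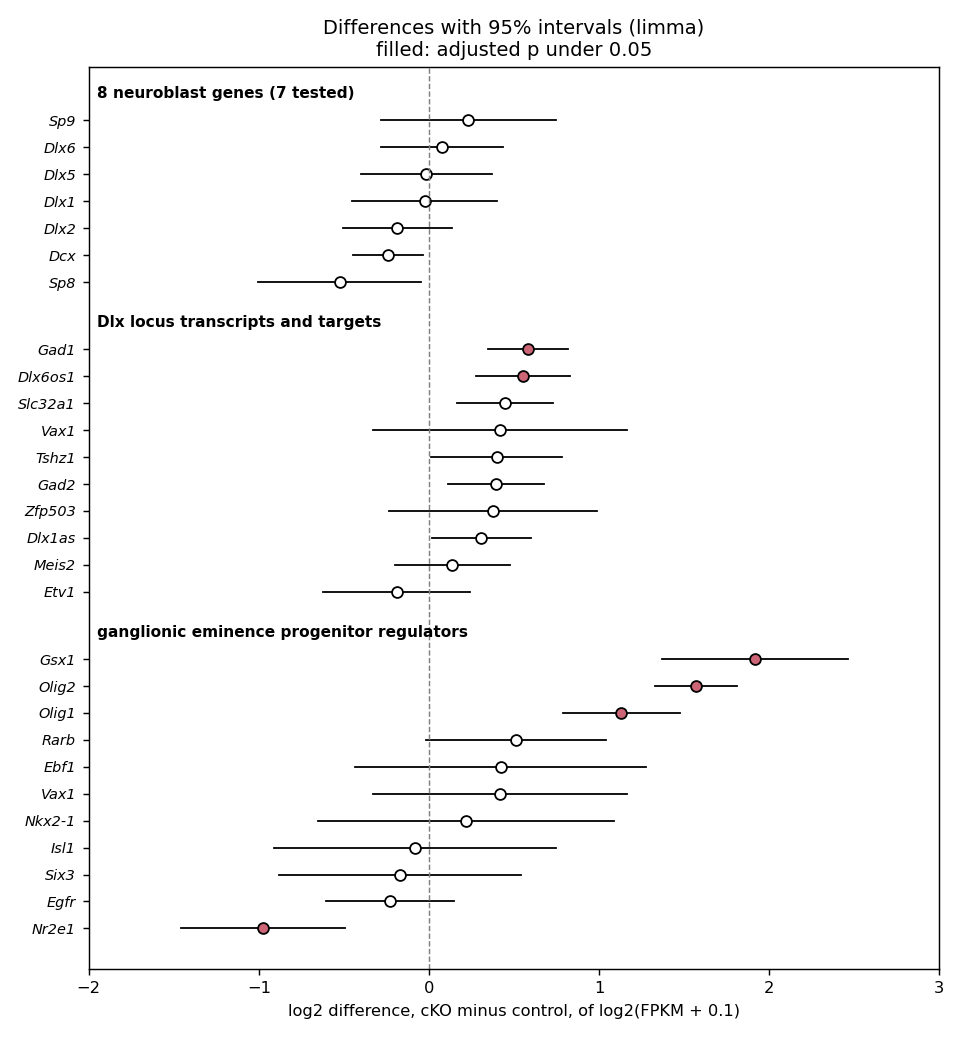
Log2 difference, cKO minus control, with its 95% interval (x axis) for every tested gene of 3 lists: the Dlx-Sp8 neuroblast genes, the Dlx locus transcripts and targets, and the ganglionic eminence progenitor regulators. Filled points have an adjusted p under 0.05: none of the 7 neuroblast genes does, while *Gad1*, *Dlx6os1*, *Gsx1*, *Olig2* and *Olig1* are higher and *Nr2e1* is lower.

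Some progenitor regulators that act beside or before the *Dlx* genes moved, but most of those tested were not called. Of 13 listed, 11 were tested, 3 rose and 1 fell (3.67% of all tested genes rose and 1.87% fell), with a median of 0.42. *Gsx1*, the close relative of *Gsx2* that promotes progression of eminence progenitors, was 0.443, 0.501 and 0.771 FPKM in control against 2.85, 2.51 and 1.89 FPKM in cKO libraries. It rose by 1.92 on the log2 scale (SE 0.23, limma adjusted p = 0.00565). In cKO replicate 3, where the *Dlx* genes were highest, *Gsx1* was lowest of the cKO group. *Olig2*, a factor of ventral progenitors and the oligodendrocyte lineage, rose from 14.1 ± 1.42 to 41.9 ± 4.62 FPKM and *Olig1* from 51.8 ± 9.80 to 112.8 ± 14.7 FPKM. These 3 genes passed in all 16 alternatives.

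*Nr2e1*, which encodes the neural stem cell receptor TLX, fell from 3.41 ± 0.162 to 1.74 ± 0.567 FPKM (log2 -0.97, limma adjusted p = 0.0408). That call was lost in 8 of 16 alternatives, among them each omission of a library except cKO replicate 3, at adjusted p from 0.0743 to 0.130. *Egfr*, a receptor of activated stem cells and transit-amplifying cells, was 1.91, 1.61 and 1.93 FPKM in control against 1.39, 1.39 and 1.87 FPKM in cKO libraries (adjusted p = 0.453). *Isl1*, *Ebf1*, *Six3* and *Nkx2-1*, regulators of ventral forebrain derivatives, did not pass, at log2 differences of -0.08, 0.42, -0.17 and 0.22.

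Markers of dividing cells and of oligodendrocyte precursors, in which *Olig1* and *Olig2* are also expressed, moved with these genes. For the counts in this paragraph, 3.67% of all tested genes rose and 1.87% fell. Of 12 proliferation genes 10 rose, with a summed level of 30.9 to 34.8 FPKM in control against 55.5 to 58.9 FPKM in cKO libraries. Of 10 oligodendrocyte precursor genes 8 rose and 0 fell, with a summed level of 61.4 to 70.0 FPKM in control against 178 to 234 FPKM in cKO libraries, and none was at 0. Of 15 Notch pathway genes 4 fell and 2 rose, the latter being *Dll3* and *Dll1*, ligands of cells leaving the progenitor state, at log2 1.81 and 0.57, the call of *Dll1* being lost in 9 of 16 alternatives. *Hes5*, the Notch-induced repressor of proneural genes, fell by 2.45 on the log2 scale. Of 10 astrocyte genes 6 fell and 1 rose, with a median of -1.50. The proliferation count was 6 without control replicate 2 or cKO replicate 1, and the astrocyte count was 4 in all without control replicate 1 or 2. The part of precursor cells in the rise of *Gsx1*, *Olig1* and *Olig2* was not tested.

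Genes of migrating neuroblasts beyond the 8 lay lower on the whole. Of 21, all were tested, 0 rose and 2 fell (3.67% of all tested genes rose and 1.87% fell). The median was -0.13, and 15 had a negative log2 difference, against 5149 of all 14147 genes. *Tubb3*, the neuronal tubulin, fell from 1404 ± 41.7 to 1141 ± 45.1 FPKM (log2 -0.30, limma adjusted p = 0.0162). *Cd24a*, a surface protein of neuroblasts and young neurons, fell from 287.9 ± 23.5 to 219.4 ± 13.7 FPKM (log2 -0.39, adjusted p = 0.0281). Both calls ended without control replicate 1 (adjusted p = 0.0577 and 0.0871), control replicate 2 (0.0757 and 0.0896) or cKO replicate 2 (0.0737 and 0.104), and that of *Cd24a* also without cKO replicate 3 (0.0728). With the replicate number as a block neither passed (adjusted p = 0.0530 and 0.0582), nor with no mean-variance trend (0.0741 and 0.0763). *Igfbpl1*, a marker of early neuroblasts, was 5.98, 6.44 and 5.33 FPKM in control against 4.46, 2.99 and 6.43 FPKM in cKO libraries, again highest in cKO replicate 3 (adjusted p = 0.384). *Sox11* and *Sox4*, factors of immature neurons, did not pass, at -0.20 and -0.06 on the log2 scale.

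Of 12 medial eminence interneuron genes, 11 were tested and 2 rose (3.67% of all tested genes rose and 1.87% fell). These were the neuropeptide gene *Sst*, at 361.6, 412.9 and 432.1 FPKM in control against 626.0, 661.3 and 564.9 FPKM in cKO libraries (log2 0.62, limma adjusted p = 0.00872), and *Sox6* (log2 0.78, adjusted p = 0.0294). *Sst* passed in all 16 alternatives and *Sox6* in 8 of them, losing its call with each library left out in turn (adjusted p from 0.0503 to 0.10). *Lhx6*, the lineage factor of these neurons, was 6.40, 5.84 and 6.81 FPKM in control against 7.80, 6.63 and 7.44 FPKM in cKO libraries and did not pass (adjusted p = 0.280). None of 13 caudal eminence interneuron genes passed, with 2 higher and 3 lower at an unadjusted p under 0.05 (median 0.10). Over all 14147 tested genes, 2338 were higher and 896 lower at that threshold. The lower ones of the list were *Sp8*, already counted among the 8, *Nr2f1* and *Vip*, a neuropeptide gene at 6.12 ± 0.969 and 4.70 ± 0.563 FPKM (adjusted p = 0.165). The most abundant of the list, *Cck* and *Calb2*, had log2 differences of -0.05 and 0.03.

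Of 12 olfactory bulb interneuron genes, 10 were tested and *Calb1*, a calcium-binding protein shared with cortical neurons, rose from 13.1 ± 1.42 to 20.9 ± 1.57 FPKM (log2 0.67, limma adjusted p = 0.010). Its call ended without control replicate 2 (adjusted p = 0.0561). Over all tested genes, 3.67% rose and 1.87% fell. *Th*, made by dopaminergic bulb interneurons, was 0.515, 0.523 and 0.537 FPKM in control against 0.499, 0.768 and 1.37 FPKM in cKO libraries, and *Tbx21*, specific to bulb projection neurons, was at most 0.0794 FPKM. Of 13 striatal neuron genes *Tac1* and *Rgs9* rose, at an adjusted p of 0.0492 each, calls that ended in 10 and 11 of 16 alternatives. The summed level of the striatal list was 95.2, 163 and 169 FPKM in control libraries. Striatal neurons also express *Gad1* and *Gad2*, and their part in the *Gad1* rise was not tested.

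On the excitatory side, *Eomes*, *Neurog1*, *Neurog2*, *Neurod4* and *Pax6*, genes of cortical progenitors, stayed under the filter, the highest value of any being 0.388 FPKM. Of the 7 excitatory proneural genes tested 1 fell, *Emx1*, a homeobox gene of the cortical lineage, from 9.21 ± 0.288 to 5.98 ± 0.999 FPKM (log2 -0.63, limma adjusted p = 0.0343). *Emx1* passed in 9 of 16 alternatives. Over all tested genes, 3.67% rose and 1.87% fell. *Tbr1*, a factor of young cortical projection neurons, was 15.3 ± 0.672 and 15.4 ± 1.75 FPKM (adjusted p = 0.991). Of the 12 cortex identity genes *Emx1* alone passed, with a median of -0.19 for the list.

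**Figure D4:**
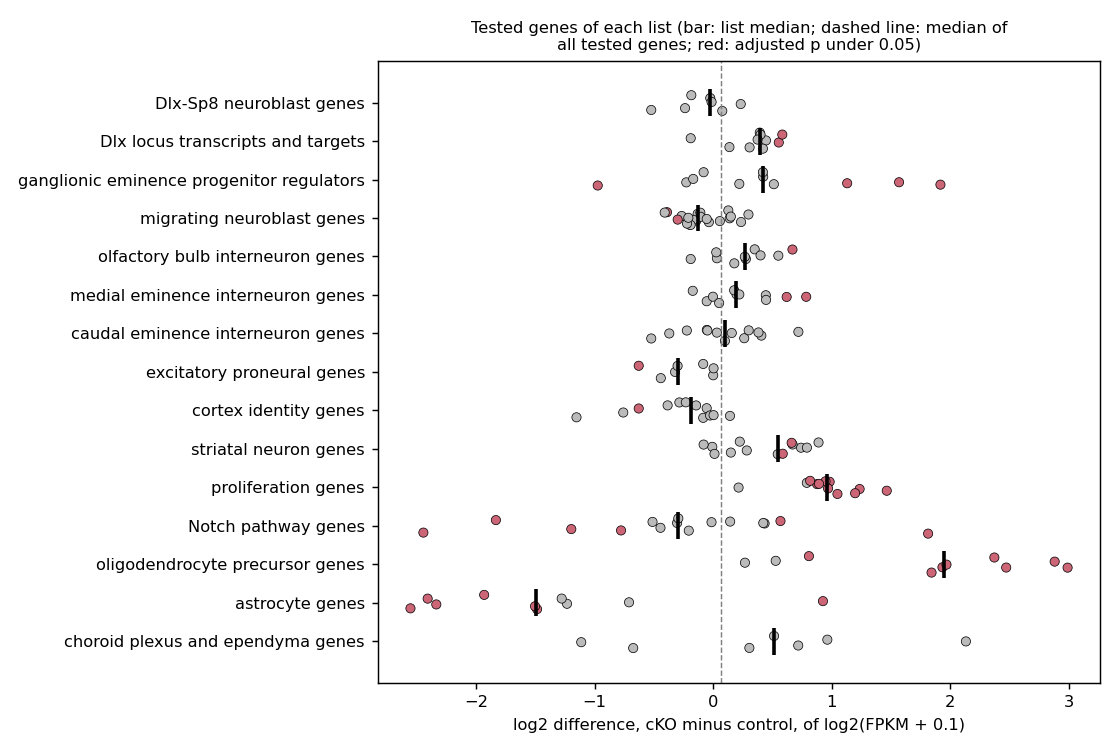
Log2 difference, cKO minus control (x axis), of each tested gene in the 15 lists (rows), with a bar at the list median, a dashed line at the median of all tested genes (0.07) and red points for an adjusted p under 0.05. The Dlx-Sp8 neuroblast genes scatter around 0 (median -0.03), between the eminence progenitor regulators (median 0.42) and the migrating neuroblast genes (median -0.13).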

How the data were processed

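The deposited values are FPKM made by the authors, per the file headers, 1 column for each of 6 cortex libraries (3 control, 3 cKO). The table's name speaks of raw counts, but the values are decimals. Coordinates are on mm10, the build named in the submitters' processing notes. No aligner, counting program or strand setting is given in the sources used here. Each of the 6 per-library tables held the same values as the column of that library.

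A moderated test (limma 3.58.1 in R 4.3.3, with mean-variance trend and robust estimation) was run on log2(FPKM + 0.1) for 14147 genes that reached 0.5 FPKM in 3 or more libraries, group being the only term. Fold changes on that scale understate the change of low genes. Benjamini-Hochberg adjustment ran over these genes, and calls were made below an adjusted p of 0.05. The same steps were tested on simulated data.

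The 8 genes and the 14 other lists were chosen with earlier results of these data known. Named genes are the 8, *Psenen*, genes overlapping the 8, up to 6 called genes of each list by smallest p or else the 2 most abundant, and the 6 most alike in profile. Others, such as *Gad2*, *Slc32a1*, *Lhx6*, *Vip*, *Th*, *Egfr*, *Igfbpl1* and *Foxj1*, were chosen after their values were seen. Fragment numbers use depths implied by value steps and GENCODE M21 transcript lengths. The alternatives changed the pseudocount, filter, scaling, test options and replicate block, or left out a library. A comparison of protein sequences was not made here, and some genes are not reported here and were left out of the lists.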

Additional observations from a re-analysis of the deposited data

How the results depend on the processing

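Over 16 alternatives the number of genes called was 783 in the fit reported, 499 with no filter on low values, 456 with the replicate number as a block, and 220 to 829 with 1 library left out (312, 220, 314 and 306 without control replicates 1 and 2 and cKO replicates 1 and 2). The higher share of calls also depended on scaling, with 519 higher and 264 lower as reported, 314 and 343 with median-ratio scaling, 351 and 346 with upper-quartile scaling, and 907 and 244 with equal sums. The median log2 difference of all tested genes was then -0.00, 0.01 and 0.12. Over all lists 45 calls were made, and 26 to 42 with 1 library left out.

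The 7 tested neuroblast genes stayed short of the threshold in all alternatives, except *Dcx* without control replicate 3 (log2 -0.327, against -0.186 at the other end with 1 library left out), so that 0 to 1 were called. *Dlx2*, *Sp8* and *Dcx* stayed negative and *Sp9* positive throughout. *Dlx1* turned positive with equal sums (0.025) and in 4 fits with 1 library left out (0.02 to 0.09, adjusted p 0.837 to 0.971), its range with 1 library left out being -0.203 to 0.087. *Dlx5* turned positive with equal sums (0.035) and in 4 such fits (0.01 to 0.10), within a range of -0.156 to 0.104, and *Dlx6* turned negative without cKO replicate 3 (-0.076), within -0.076 to 0.189. *Calb2* turned negative with median-ratio (-0.038) and upper-quartile (-0.028) scaling and without control replicates 2 and 3 and cKO replicate 3 (-0.01, -0.05 and -0.24, within -0.24 to 0.27), and *Cck* positive without cKO replicate 3 (0.021, within -0.109 to 0.021). The cause was not tested.

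Same-numbered samples deviated together only weakly (correlations 0.061, 0.012 and 0.1), so the numbers were not taken to pair them. With the replicate block none of the 8 genes passed. Fragment numbers limit *Gsx2* above all.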
